A study of Mus musculus with 24 samples.

Results

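The expression of 10 genes, of 14074 in the table for the prefrontal cortex (PFC), was followed across 24 male C57BL/6 mice. The genes were chosen by name as genes of pericytes and vascular smooth muscle, with earlier results of these data known. All 10 were present: Acta2, Tagln, Myh11, Myl9, Rgs5, Pdgfrb, Vtn, Notch3, Abcc9 and Gkn3. The mice were 10 to 12 weeks old and formed 6 groups of 4. Control animals were unstressed and had been housed alone for 5 days. PS (passive coping) and AS (active coping) animals had gone through 30 days of social defeat by CD1 males, and were told apart by clustering of their behavior during non-aggressive contact with the aggressor. In each phenotype, 4 animals received saline and 4 received the glucocorticoid dexamethasone (DEX, 2 mg/kg), and the PFC was taken 6 h later. Each library came from the tissue of 1 mouse, so the p-values measure the spread between animals.

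Pericytes and smooth muscle cells are the mural cells of blood vessels. They lie on the outside of the endothelial tube, pericytes on capillaries and smooth muscle cells on arteries, arterioles and veins. Smooth muscle cells narrow the vessel by pulling actin filaments against myosin, while pericytes help to maintain the blood-brain barrier. Endothelial cells hold mural cells in place through PDGF-B, read by PDGFRB, and through Notch ligands, read by NOTCH3. The mural cells are a small minority of the cells in cortex. In tissue RNA of this kind, fewer cells of a type and less RNA per cell cannot be told apart.

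The contractile genes share a known regulator, serum response factor, which binds the CArG box, and the GR, the receptor activated by DEX, binds its own DNA elements. Sequences upstream of the RefSeq start sites (GRCm38.p6) were available for 7 of the 10 genes, without Tagln, Myh11 and Pdgfrb. In the 250 bases before the start, on both strands, a CArG box with at most 1 middle base other than A or T was present in 2 of these 7 genes, Acta2 and Myl9, and in 8.59% of all 32851 promoters. Sequences of Acta2 and Myl9 are shown because these genes hold the CArG boxes and fell with DEX in AS animals, and that of Gkn3 because its fall was the largest of the 10. They are written 5′ to 3′ on the strand of the gene, and capitals mark the CArG boxes. Both Acta2 boxes lie upstream of the RefSeq start but inside an exon annotated by GENCODE, so only 30 bases around each are shown. The Myl9 and Gkn3 sequences lie outside annotated exons.
Acta2 (chr19:34255438-34255467, minus strand): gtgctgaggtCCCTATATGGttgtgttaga
Acta2 (chr19:34255388-34255417, minus strand): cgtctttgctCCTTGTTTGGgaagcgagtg
Myl9 (chr2:156775214-156775419, plus strand): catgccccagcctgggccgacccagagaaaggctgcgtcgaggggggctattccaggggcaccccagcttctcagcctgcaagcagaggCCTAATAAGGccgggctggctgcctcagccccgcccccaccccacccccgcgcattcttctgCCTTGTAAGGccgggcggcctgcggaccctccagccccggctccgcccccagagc
Gkn3 (chr6:87388936-87389185, minus strand): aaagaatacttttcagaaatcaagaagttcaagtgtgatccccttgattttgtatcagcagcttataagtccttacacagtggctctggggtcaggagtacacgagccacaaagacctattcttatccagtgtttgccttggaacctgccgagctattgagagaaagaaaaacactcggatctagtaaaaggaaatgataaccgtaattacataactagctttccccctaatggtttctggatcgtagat

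The strict CArG box, with A or T at all middle positions, was present in Myl9 alone among the 7 and in 1.47% of all promoters. The full palindromic GR element was found in 0 of the 7 windows and in 0.387% of all windows. Its single site AGAACA was found in Acta2 and Vtn, and in 16.1% of all windows. These matches describe letters in a short window and not binding.

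The deposited values are reads per gene after division by a size factor of the library, and are called normalized counts below. From them 21121869 to 59439645 reads on genes per library were recovered. The depth differed between groups, with a median of 22869703 reads in saline-treated controls and 37876626 in DEX-treated AS animals. The lowest number of reads of any of the 10 in a library was 16, for Gkn3. As a check of the DEX labels, Fkbp5, Tsc22d3 and Sgk1, all induced by GR, were higher with DEX in each phenotype (3 of 3 genes, log2 fold change 0.67 to 2.26, limma adjusted p under 0.1). Markers of pyramidal neurons (6 of 6) and of GABAergic neurons (6 of 6) were measured, and 1 of 5 choroid plexus genes was.

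Per length, in TPM (recovered reads per base of exon, scaled to the same total in each library), Vtn and Rgs5 were the most abundant of the 10 in saline-treated controls. Vtn encodes vitronectin, a secreted adhesion protein that brain pericytes produce, and stood at 119 ± 11.3 TPM (SD, n = 4). Rgs5, a regulator of G protein signaling and a common marker of pericytes, stood at 76.4 ± 17.0 TPM. Then came Myl9, a regulatory light chain of myosin, at 30.7 ± 4.84 TPM and Pdgfrb at 19.8 ± 2.03 TPM. Acta2 (smooth muscle actin), Gkn3, Tagln and Notch3 followed at 9.42, 8.45, 7.18 and 7.12 TPM, and neighbors in this order overlapped. Abcc9, the sulfonylurea receptor subunit of the potassium channel of mural cells, stood at 4.37 ± 0.824 TPM. Myh11, the smooth muscle myosin heavy chain, was lowest at 2.35 ± 0.400 TPM. In DEX-treated AS animals Acta2 stood at 3.70 ± 0.611 TPM and Gkn3 at 3.42 ± 0.940 TPM, and Tagln, Abcc9, Acta2, Notch3 and Gkn3 each overlapped with their neighbor in the order.

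**Figure D1:**
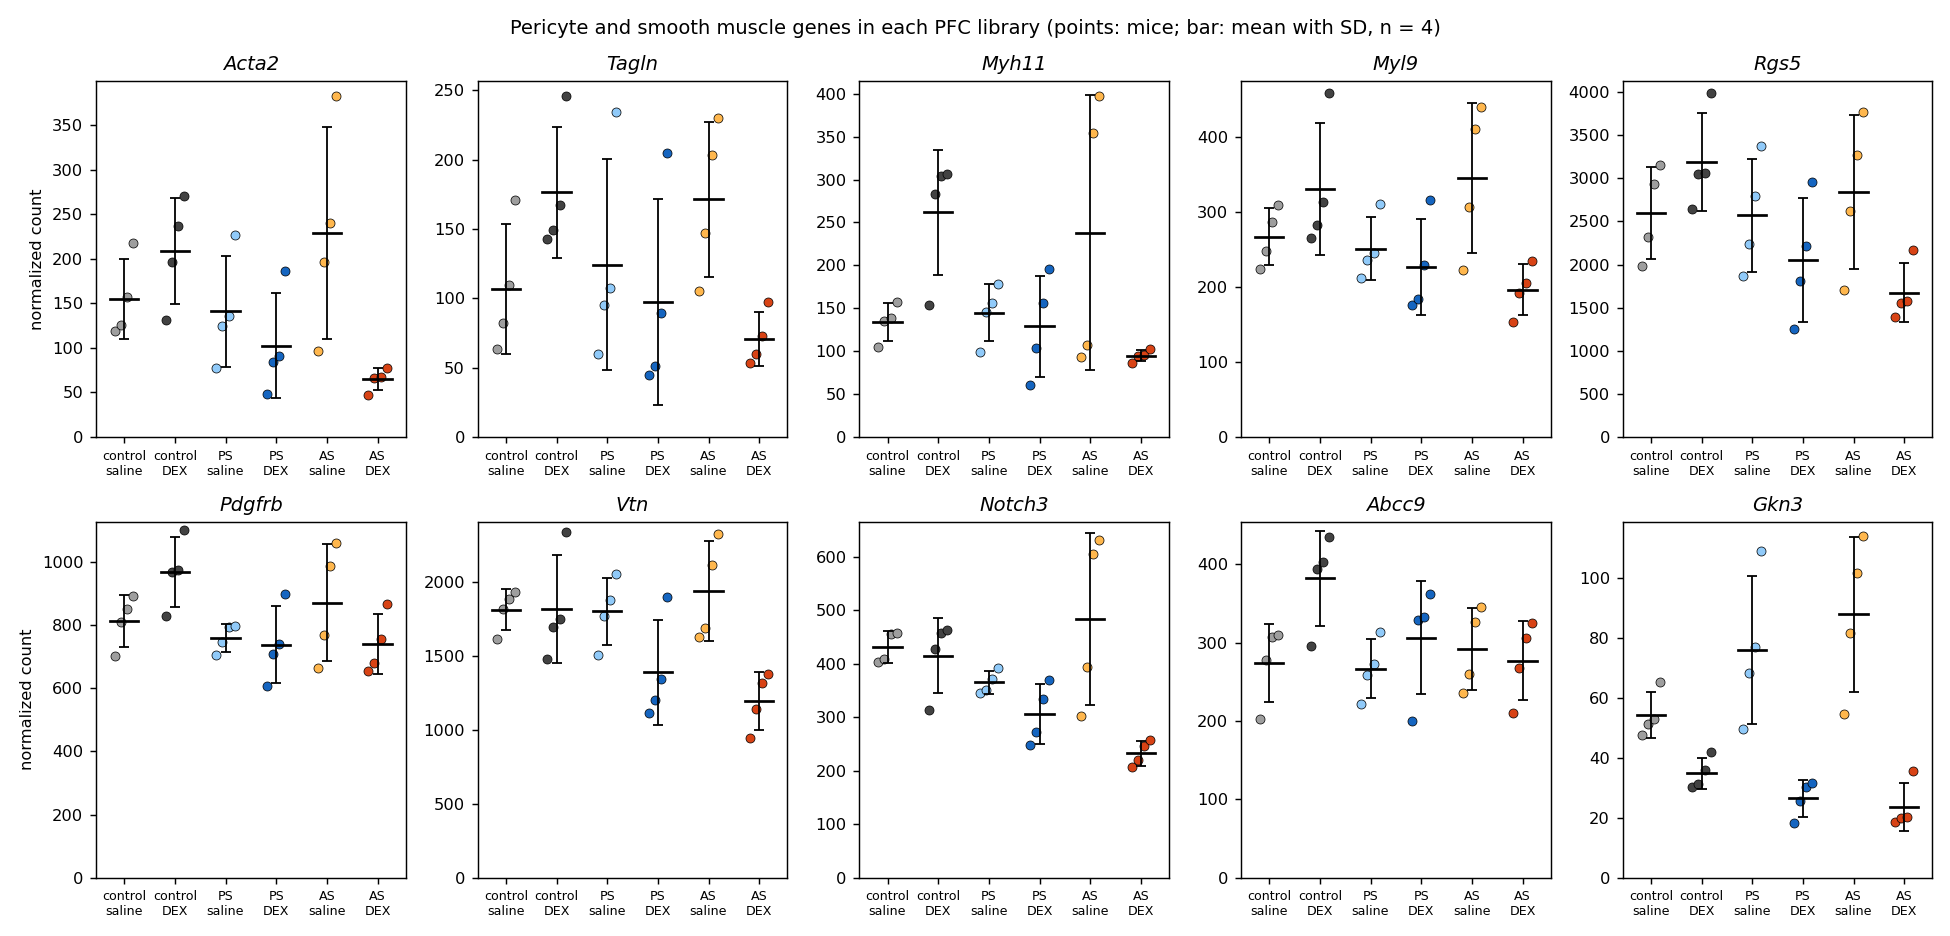
Normalized count of each of the 10 genes (vertical axis, starting at 0) in the 6 groups, with 1 point per mouse and the mean ± SD of 4 mice. DEX-treated AS animals (red) lie below all saline-treated AS animals (orange) for Acta2, Tagln, Vtn, Notch3 and Gkn3, and overlap with them for the other 5 genes.

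In AS animals, 7 of the 10 genes fell with DEX and 0 rose, at a limma adjusted p under 0.1, while 8.77% of all 14074 genes were called in this comparison and 4.95% were called lower. Their median log2 fold change (of normalized count + 1) was -0.88, against 0.0024 over all genes. Contractile genes, pericyte genes and Gkn3 were all among those that fell. The groups did not overlap for 5 genes, and 5.02% of all genes lay wholly lower with DEX.

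Of the contractile genes, 3 of 4 fell. Acta2, the actin of the smooth muscle filament, had 239.7, 96.1, 383 and 197 normalized counts in saline-treated AS animals and 67.5, 47.7, 77.6 and 66.8 with DEX. All DEX values lay below the lowest saline value. The difference was -1.66 ± 0.38 on the log2 scale (SE, limma adjusted p = 0.0079), or 3.16-fold lower.

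Tagln encodes transgelin, an actin-binding protein of smooth muscle. It had 203, 105, 230.1 and 147 normalized counts with saline and 72.8, 53.6, 97.4 and 59.9 with DEX. The groups did not overlap, although the highest DEX value came close to the lowest saline value, and the difference was -1.23 ± 0.41 (adjusted p = 0.078). With log2 library size as a covariate it was -1.19 and no longer passed (adjusted p = 0.12).

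Myl9, whose upstream sequence holds the strict CArG box shown above, had 440.5, 223, 411 and 307 normalized counts with saline and 192, 153, 235 and 206 with DEX. The highest DEX value, of mouse 60, lay above the lowest saline value. The difference was -0.78 ± 0.21 (adjusted p = 0.027).

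Myh11 did not pass the test. Its normalized counts with saline were 354, 107, 397 and 93.6, so that mice 8 and 40 stood far above mice 14 and 44. With DEX they were 103, 95.9, 94.1 and 86.4. Its difference of -1.03 ± 0.38 had an adjusted p of 0.12, and it passed with edgeR (adjusted p = 0.031) and DESeq2 (adjusted p = 0.018) on the recovered reads.

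Among the pericyte genes 3 of 5 fell, and Notch3 had the strongest evidence. NOTCH3 is the Notch receptor of mural cells and is needed for arterial smooth muscle. Notch3 had 605, 394, 632 and 303 normalized counts with saline and 258, 246, 206 and 219.9 with DEX, with no overlap. The difference was -0.99 ± 0.17 (adjusted p = 0.00082), a 1.99-fold lower level.

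Vtn had 2116, 1691, 2328 and 1631 normalized counts with saline against 1142, 946, 1378 and 1317 with DEX, again without overlap (-0.70 ± 0.16, adjusted p = 0.0073). Rgs5 had 3273, 1707, 3769 and 2624 against 1394, 1578, 2171 and 1556. Its groups overlapped, since the DEX-treated mouse 60 exceeded the saline-treated mouse 14 (-0.72 ± 0.24, adjusted p = 0.081). The Rgs5 call was lost with only the groups compared (adjusted p = 0.11) and with log2 library size as a covariate (-0.69, adjusted p = 0.12).

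The other pericyte genes did not pass the test in AS animals. Pdgfrb, the receptor for PDGF-B, had a mean of 870.2 ± 185 normalized counts with saline and 739.6 ± 95.1 with DEX (SD, n = 4; log2 fold change -0.22 ± 0.13, adjusted p = 0.42). Abcc9 had 291 ± 52.5 and 277 ± 50.5 (-0.074 ± 0.18, adjusted p = 0.89).

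Gkn3, a gastrokine family gene known in the brain mainly from arterial vessels, had the largest difference of the 10. Gkn3 was counted with neither the contractile nor the pericyte genes, and whether endothelial or mural cells express it was not tested here. In AS animals it had 81.5, 54.4, 101 and 114 normalized counts with saline and 20.3, 20.0, 35.5 and 18.4 with DEX. The highest DEX value lay below the lowest saline value, and the level was 3.60-fold lower (-1.85 ± 0.25, adjusted p = 4.4e-05).

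It was also the only one of the 10 that passed the test in PS animals. There Gkn3 had 49.7, 76.7, 109 and 68.3 normalized counts with saline and 25.7, 18.1, 30.4 and 31.6 with DEX (-1.46 ± 0.25, adjusted p = 0.00059), without overlap, as for 4.57% of all genes wholly lower with DEX in PS animals. In controls it had 51.3, 65.2, 47.5 and 52.8 against 41.8, 31.3, 35.8 and 30.2. These groups did not overlap either, and 4.32% of all genes lay wholly lower with DEX in controls, but the difference of -0.63 ± 0.25 did not pass (adjusted p = 0.19). Each of the 12 DEX-treated animals thus had less Gkn3 than any saline-treated animal of its own phenotype. The share of all genes that lay wholly lower in every phenotype, as Gkn3 did, was not computed. The difference between the AS and control responses was -1.22 ± 0.35 (adjusted p = 0.13) and that between AS and PS was -0.39 ± 0.35 (adjusted p = 1.0).

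In controls 0 of the 10 genes were called with DEX, with 6.49% of all genes called, and 7 of 10 fold changes were positive. Unadjusted p was under 0.05 for 3 of the 10 in controls, against 15.3% of all genes. With DEX, Myh11 had 304, 283, 154 and 307 normalized counts in controls, against 135, 139, 157 and 104 with saline. The DEX values of mice 101, 108 and 122 lay above the saline range and that of mouse 112 inside it (0.92 ± 0.38, adjusted p = 0.21). Tagln had a log2 fold change of 0.79 ± 0.41 (adjusted p = 0.37), Abcc9 of 0.48 ± 0.18 (adjusted p = 0.17) and Acta2 of 0.42 ± 0.38 (adjusted p = 0.69). Vtn and Notch3 had -0.014 ± 0.16 and -0.068 ± 0.17. A model of the control groups alone called 2 genes, Myh11 and Gkn3, and 1 gene, Abcc9, passed without DEX-treated control mouse 112 or without DEX-treated PS mouse 34.

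In PS animals 1 of 10 genes, Gkn3, was called, with 5.36% of all genes called and 2.62% called lower. Of the 10 fold changes 9 were negative, at a median of -0.31 against -0.0026 over all genes. Vtn came nearest among the rest, at -0.40 ± 0.16 (adjusted p = 0.21). Acta2 had 77.7, 124, 226 and 136 normalized counts with saline and 84.5, 48.3, 91.1 and 186 with DEX (-0.52 ± 0.38, adjusted p = 0.65). Within DEX-treated PS animals, mouse 34 was lowest and mouse 56 highest for 10 of the 10 genes. Without mouse 56, Vtn passed too (-0.56, adjusted p = 0.035), which made 2 genes. Abcc9 was the single gene with a positive value (0.17 ± 0.18, adjusted p = 0.81).

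**Figure D2:**
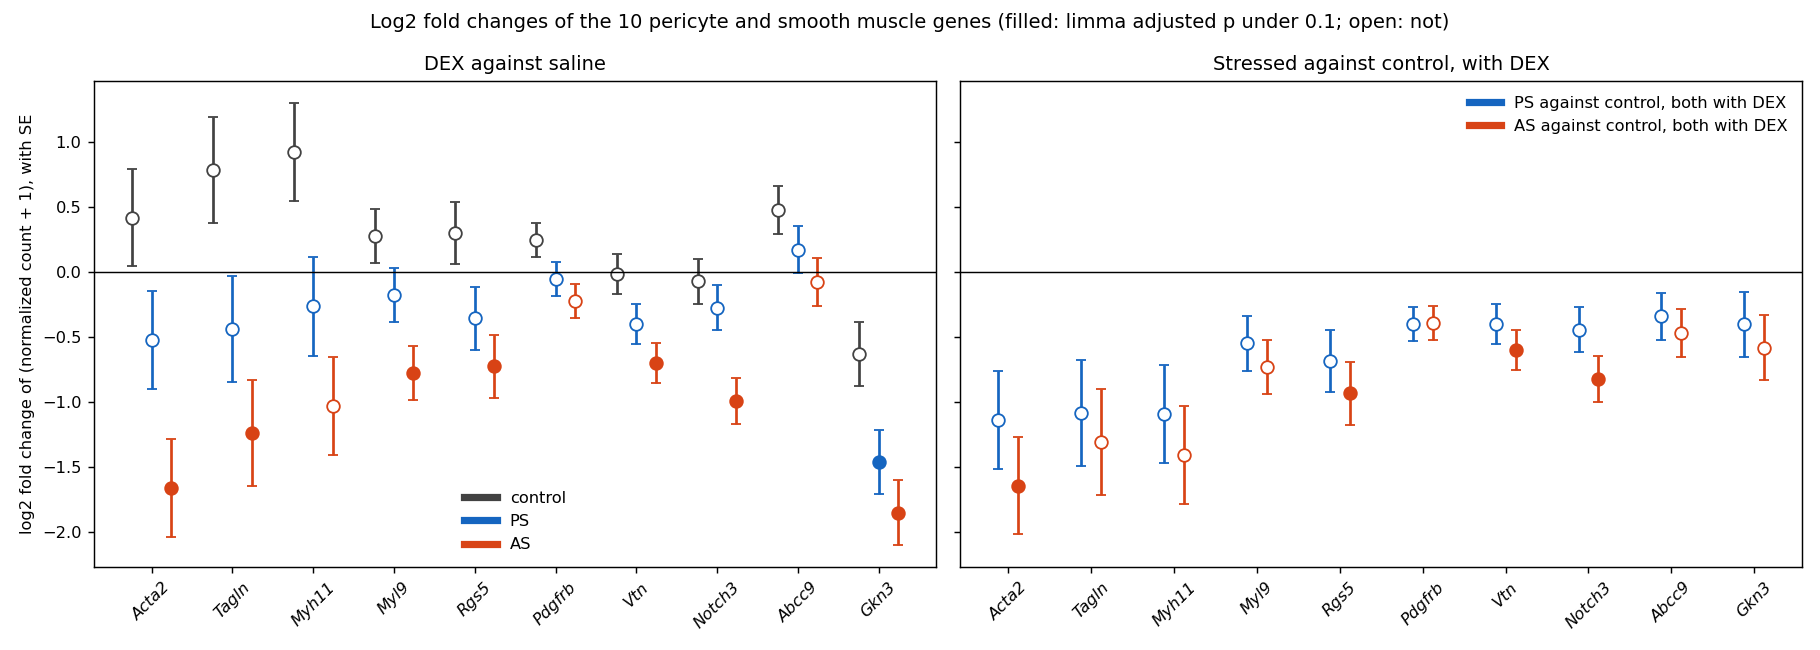
Log2 fold change of normalized count + 1 with its SE from limma for each of the 10 genes. Left, the response to DEX (over saline) by phenotype; right, PS and AS against control, all with DEX; filled points had an adjusted p under 0.1. The AS values (red) run from -1.85 for Gkn3 to -0.074 for Abcc9, with 7 filled points, and the control values (black) run from -0.63 to 0.92 with 0 filled.

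Whether the response to DEX differed between phenotypes was tested by the interaction. Between AS and control, the difference of responses was negative for all 10 genes, at a median of -1.04 against 0.0015 over all genes. By limma 0 of the 10 passed the adjusted threshold, with 0.348% of all genes called. Adjusted p ran from 0.11 to 0.35, and unadjusted p was under 0.05 for 10 of 10, against 13.5% of all genes. DESeq2 called 7 of the 10 and edgeR 3, and the 0.348% of limma is not a share for these models. The contractile genes Acta2 (-2.08 ± 0.53, adjusted p = 0.11), Tagln (-2.02 ± 0.58, 0.13) and Myh11 (-1.95 ± 0.53, 0.12) had the largest values, followed by Gkn3 as given above and Myl9 (-1.06 ± 0.30, 0.12). Among the pericyte genes, Rgs5 had -1.03 ± 0.34, Notch3 -0.92 ± 0.25, Vtn -0.68 ± 0.22, Abcc9 -0.55 ± 0.26 and Pdgfrb -0.47 ± 0.19. The interaction uses the same animals as the comparisons above. Its count went from 0 to 7 without saline-treated AS mouse 14, saline-treated AS mouse 44 or DEX-treated control mouse 112. It was 5 without DEX-treated PS mouse 56, 4 without DEX-treated AS mouse 60 and 3 without DEX-treated PS mouse 34. The share of all genes called after each removal is not given here. Over single removals, the number of 16 endothelial genes called in this interaction ran from 0 to 10.

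Between PS and control, 0 of 10 were called (0% of all genes), all 10 differences were negative and 3 had an unadjusted p under 0.05, against 9.98% of all genes. Between AS and PS, 0 of 10 were called (0% of all genes), with 2 of 10 at an unadjusted p under 0.05, Notch3 (-0.72 ± 0.25) and Acta2 (-1.14 ± 0.53), against 2.44% of all genes.

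The same animals were compared at the level reached with DEX. In AS animals 4 of the 10 genes were lower than in controls, both with DEX, at an adjusted p under 0.1, and 0 were higher. Of all genes 0.867% were called, and 0.76% were called lower in AS. Notch3 was lower by -0.82 ± 0.17 (adjusted p = 0.044), Acta2 by -1.64 ± 0.38 (0.053), Rgs5 by -0.93 ± 0.24 (0.094) and Vtn by -0.60 ± 0.16 (0.097). Unadjusted p was under 0.05 for 10 of 10, against 13.4% of all genes, and DEX-treated AS animals lay wholly below DEX-treated controls for 7 of 10, against 4.02% of all genes. For Acta2, for instance, DEX-treated controls had 270.3, 237, 131 and 196 normalized counts, and the lowest of them exceeded the highest AS value of 77.6. With log2 library size as a covariate 0 of the 10 were called, while the fold changes stayed negative, at -0.84 for Notch3 (adjusted p = 0.46), -1.47 for Acta2 (0.55), -0.79 for Rgs5 (0.65) and -0.47 for Vtn (0.65). The median depth was 23492572 reads in DEX-treated controls and 37876626 in DEX-treated AS animals. The count was also 0 without any one of DEX-treated AS mice 38, 42 and 72 and DEX-treated control mice 101, 108 and 122. It was 2 without any one of the 4 saline-treated controls, saline-treated PS mice 28 and 62 and DEX-treated PS mice 6 and 52, and 7 without DEX-treated PS mouse 56. The share of 0.867% is that of the fit with all libraries.

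In PS animals with DEX, 0 of the 10 were called against controls with DEX, with 0.199% of all genes called. All 10 fold changes were negative, from -1.13 ± 0.38 for Acta2 to -0.34 ± 0.18 for Abcc9, and 8 had an unadjusted p under 0.05, against 14% of all genes. Without DEX-treated PS mouse 56, 5 of the 10 passed, and the share of 0.199% does not apply to this fit. The comparison shares the DEX-treated controls with that of AS animals, and the PS and AS values for Pdgfrb, for example, were -0.40 ± 0.13 and -0.39 ± 0.13. Between AS and PS with DEX, 0 of 10 were called (0% of all genes), and Notch3 alone had an unadjusted p under 0.05 (-0.38 ± 0.17, against 4.12% of all genes).

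With saline, 0 of the 10 were called in PS against control (1.51% of all genes called), 0 in AS against control (0.156% called) and 0 in AS against PS (0% called). At an unadjusted p under 0.05 there were 0, 1 and 0 of the 10, against 13.1%, 11% and 4.77% of all genes. In AS against control all 10 fold changes were positive, at a median of 0.22 against 0.0031 over all genes. Gkn3 had the smallest p among them (0.64 ± 0.25, adjusted p = 0.35). The contractile genes had 0.33 to 0.72 in this comparison and the pericyte genes 0.077 to 0.10. In PS against control Notch3 was the 1 gene whose groups did not overlap, with 345 to 392 normalized counts against 403 to 457 (-0.24 ± 0.17, adjusted p = 0.59). Of all genes 11.3% did not overlap in this comparison, 6.12% wholly lower in PS.

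Most of the 10 genes varied together from mouse to mouse, and Gkn3 did so least. Within saline-treated AS animals, mice 8 and 40 were the 2 highest for 9 of the 10 genes, all except Gkn3, and mouse 14 or 44 was the lowest for each. Scores were formed per library as the mean of log2(normalized count + 1) after centring each gene on the 24 libraries. The contractile score of saline-treated AS animals ran from -0.29 to 1.18, and that of DEX-treated AS animals from -0.95 to -0.42. The contractile and pericyte scores had a Pearson r of 0.94 and a Spearman rho of 0.93 over 24 libraries. After subtraction of the group means r was 0.91, and without the 2 libraries farthest from the median it was 0.92. Both scores come from the same libraries and share their size factors, so these values are descriptive.

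Over 24 libraries, single pairs of contractile genes correlated at 0.81 to 0.92 and pairs of pericyte genes at 0.27 to 0.82. Pairs with Gkn3 correlated at -0.11 to 0.72. After subtraction of the group means the ranges were 0.68 to 0.88, 0.38 to 0.79 and 0.034 to 0.68, in the same order. Gkn3 had the lowest of these values.

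Leaving out single AS libraries changed how many genes passed in the DEX comparison of AS animals. The count went from 7 to 4 without mouse 8 or 40 (saline) and without mouse 42 (DEX). Without both mice 8 and 40, a setting chosen after seeing the data, 2 of the 10 passed, Notch3 and Gkn3. Acta2 then had -1.09 (adjusted p = 0.31) and Myh11 -0.082 (adjusted p = 0.98). Notch3 passed in all 34 alternatives, and Gkn3 in all 33 in which it was tested. A filter on a mean of at least 100 normalized counts removed Gkn3, whose mean is 50.4.

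**Figure D3:**
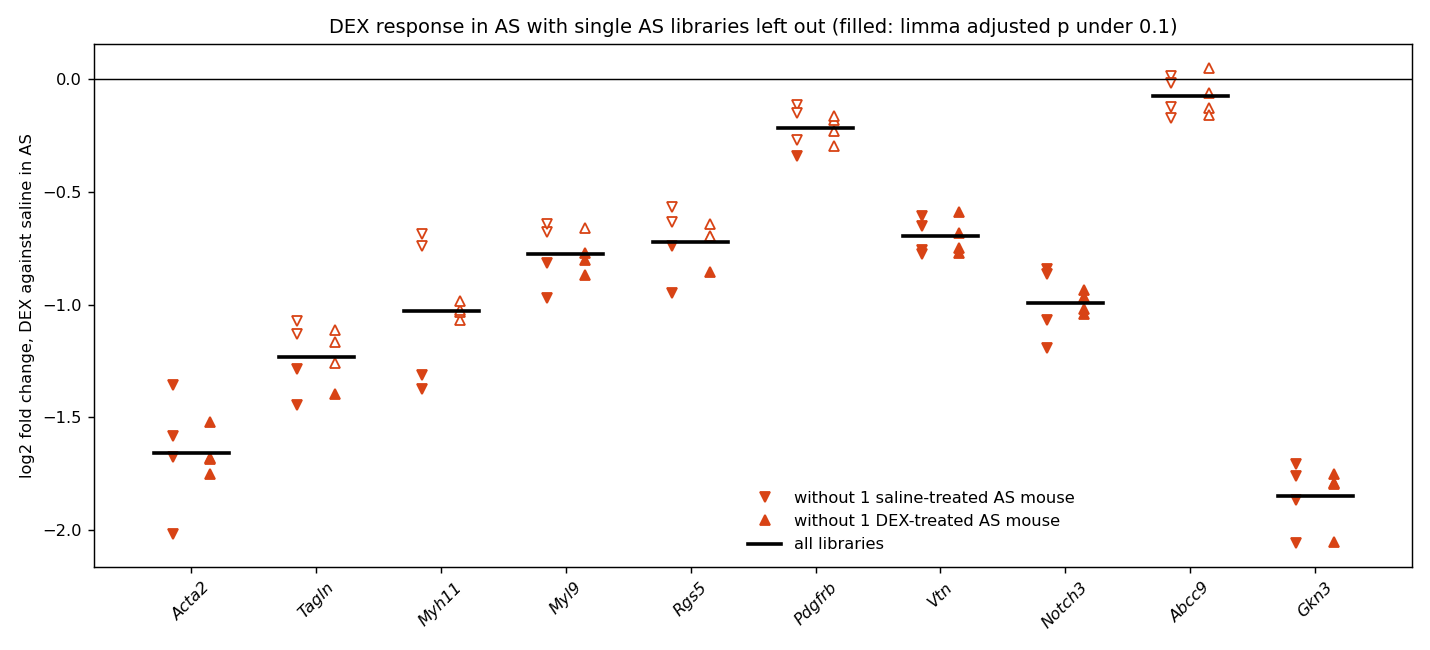
Log2 fold change of DEX against saline in AS animals for the 10 genes with all libraries (black bars) and with 1 saline-treated (down triangles) or 1 DEX-treated (up triangles) AS mouse left out; filled symbols had an adjusted p under 0.1. Acta2, Vtn, Notch3 and Gkn3 stayed filled in each case, Myh11 ranged from -1.38 to -0.69, and Abcc9 stayed unfilled around 0.

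Other genes linked to these cells, from lists that hold no member, were followed as well. The cells that express them were not told apart. In the comparison of DEX with saline, 8.77% of all genes were called in AS, 5.36% in PS and 6.49% in control animals. Of 18 further smooth muscle genes 10 were measured, and with DEX in AS animals 3 fell and 1 rose, at a median of -0.21. The genes that fell were Cald1 (caldesmon, -0.64 ± 0.17, adjusted p = 0.021), Tpm2 (beta-tropomyosin, -0.57 ± 0.17, adjusted p = 0.054) and Mustn1 (-0.75 ± 0.19, adjusted p = 0.021). Cald1 also fell with DEX in PS animals (-0.55 ± 0.17, adjusted p = 0.069). The gene that rose in AS animals, named after its value was seen, was Mrtfa (0.31 ± 0.081, adjusted p = 0.024), a coactivator of serum response factor. Mrtfa was also higher with DEX in controls (0.36 ± 0.081, adjusted p = 0.0074) and in PS animals (0.45 ± 0.081, adjusted p = 0.0011). Ppp1r14a, an inhibitor of myosin phosphatase, fell with DEX in controls (-0.81 ± 0.23, adjusted p = 0.039). In the same comparison 2 of 8 oligodendrocyte genes fell, and the cell of origin of the Ppp1r14a change was not tested. Smtn (smoothelin) was lower in AS than in control animals with DEX (-0.67 ± 0.14, adjusted p = 0.044). Tpm1 was the most abundant gene of this list, with a mean of 5354 normalized counts over the libraries, against 150 for Acta2. It did not pass with DEX in AS animals (-0.095, adjusted p = 0.33).

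Of 18 further pericyte genes 14 were measured, of which 2 fell with DEX in AS animals and 0 rose, at a median of -0.38. Mcam, an adhesion molecule of vessel walls, fell with DEX in controls (-0.75 ± 0.17, adjusted p = 0.0069), PS (-0.57 ± 0.17, adjusted p = 0.054) and AS animals (-0.88 ± 0.17, adjusted p = 0.0017). Its mean went from 272 ± 13.0 to 162 ± 11.4 normalized counts in controls. Atp13a5, a pericyte ATPase, fell in AS animals (-0.73 ± 0.19, adjusted p = 0.018).

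Ligands, receptors and targets of the PDGF-B, Notch, endothelin and TGF-beta signals to mural cells were measured for 13 of 15 genes. With DEX, 6 of them fell in AS animals, 3 in PS animals and 1 in controls, where 1 rose. Ednrb, an endothelin receptor, was the gene that fell in controls (-0.37 ± 0.099, adjusted p = 0.029). It also fell in PS (-0.43 ± 0.099, adjusted p = 0.012) and AS animals (-0.41, adjusted p = 0.012). Its difference between the AS and control responses was -0.038 (adjusted p = 0.94). The cell of origin of the changes in Ednrb and the other genes of this list was not tested. Jag1, a Notch ligand, fell in AS (-1.03 ± 0.17, adjusted p = 0.00051) and PS animals (-0.66 ± 0.17, adjusted p = 0.031). In AS animals it had a mean of 188 ± 26.1 normalized counts with saline and 92.0 ± 15.8 with DEX. Tgfb1 fell in AS (-0.67 ± 0.11, adjusted p = 0.00049) and PS animals (-0.47 ± 0.11, adjusted p = 0.016). Eng (endoglin), a TGF-beta co-receptor, fell in AS animals (-0.83 ± 0.18, adjusted p = 0.0045). Edn1, which encodes endothelin 1, a constrictor of vessels, rose with DEX in controls (0.80 ± 0.23, adjusted p = 0.041), from 62.0 ± 9.71 to 108 ± 12.0 normalized counts. With DEX it was lower in AS than in control animals (-0.88 ± 0.23, adjusted p = 0.089).

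Markers of endothelial cells moved with the 10 genes. All 16 endothelial genes were measured, and with DEX 9 fell in AS animals, 3 in PS animals and 0 in controls, with 0 rises. For comparison, 8.77%, 5.36% and 6.49% of all genes were called. The summed level of the endothelial genes ran from 9262 to 14264 normalized counts in saline-treated AS animals and from 6649 to 10304 with DEX. It ran from 9968 to 12970.2 and 10706.5 to 15536 in controls, and from 9714 to 13179.6 and 6154 to 12618.5 in PS animals. Of 9 arterial endothelial genes 6 were measured, and with DEX 3 fell in AS animals, 2 in PS animals and 0 in controls. The endothelial score and the score of the 10 genes had r = 0.93 and rho = 0.93 over 24 libraries, r = 0.88 after subtraction of the group means and r = 0.91 without the 2 farthest libraries. In DEX-treated AS animals, mouse 60 stood apart on the endothelial side, with a score of 0.0020 while the other 3 had -0.66 to -0.63. The part of vascular content in the differences of the 10 genes was not tested.

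**Figure D4:**
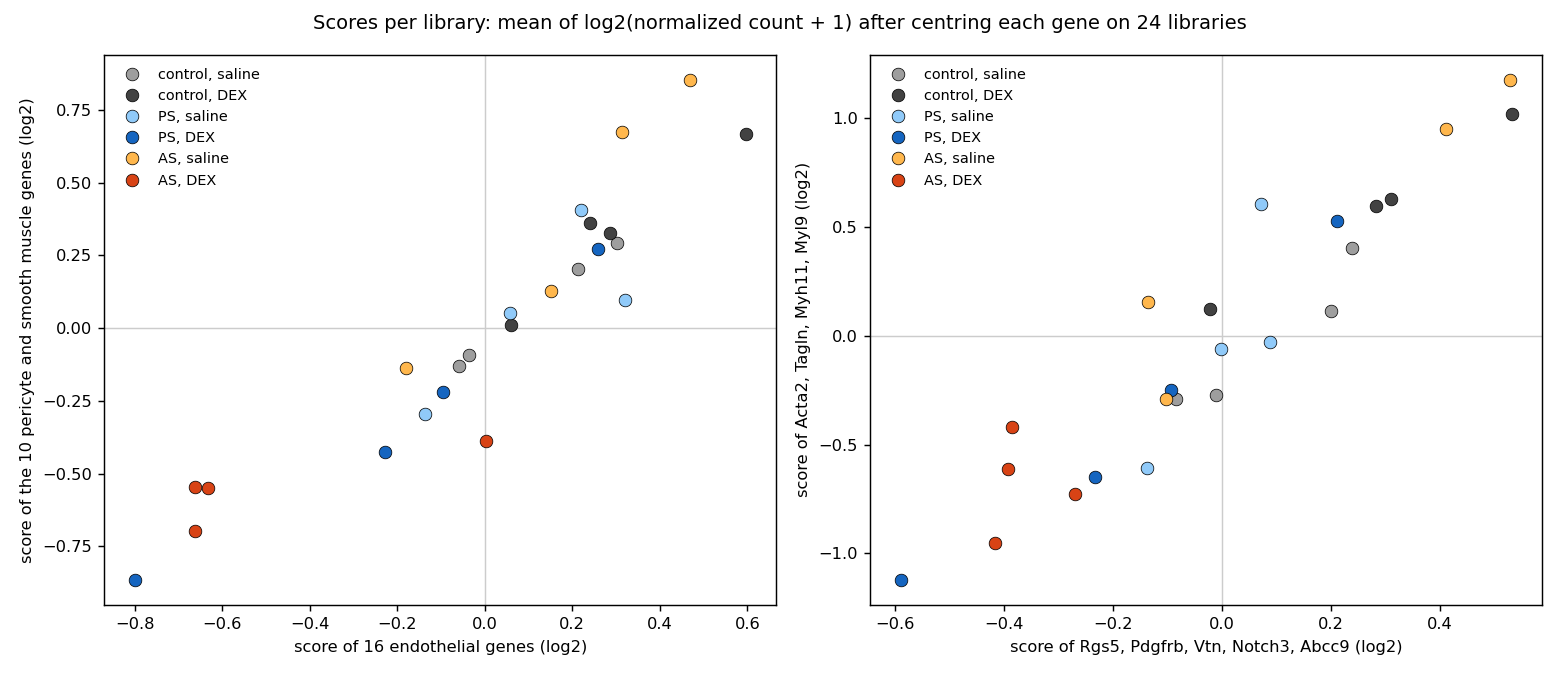
Scores per library (mean of centred log2 normalized count + 1), with 1 point per mouse and colors for the 6 groups. Left, the 10 genes against 16 endothelial genes (r = 0.93); right, the contractile against the pericyte genes (r = 0.94); DEX-treated AS animals lie below 0 for the 10 genes and for both of their subgroups, mouse 60 lies near 0 on the endothelial axis, and PS mouse 34 with DEX is the lowest point.

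Fibroblasts of the leptomeninges, which cover the surface of the cortex, also moved with the 10 genes (11 of 13 genes measured, r = 0.69, rho = 0.63, r within groups 0.62, n = 24). In AS animals 1 of the 11 fell with DEX and in controls 1 rose. All 11 log2 fold changes with DEX were positive in controls, at a median of 0.39. All were negative in PS (median -0.52) and AS animals (median -0.47). The difference of responses had a median of -0.98 between AS and control and -1.05 between PS and control, with 0 called. The summed level of the 11 genes ran from 38865 to 51048 normalized counts in saline-treated AS animals and from 24677 to 44911 with DEX. In controls it ran from 25250 to 36421 and 33438 to 55929, and in PS animals from 20326 to 51250 and 17635 to 49520. Red blood cell genes (5 of 5 measured) had r = 0.56 with the 10 genes and 0 called in each DEX comparison. Microglia genes, 8 of 8 measured, fell with DEX for 5 genes in AS, 5 in PS and 3 in control animals, and 1 rose in controls. Oligodendrocyte genes, 8 of 8 measured, rose for 2 genes with DEX in AS animals and fell for 2 in controls. Of 8 astrocyte genes, all measured, 2 fell in AS animals, 1 rose and 1 fell in PS animals and 1 rose in controls. Pyramidal neuron genes rose for 2 of 6 in AS animals and fell for 1 in controls, and 1 of 6 GABAergic neuron genes rose in AS animals and 1 in controls. For comparison, 8.77% of all genes were called with DEX in AS, 5.36% in PS and 6.49% in control animals. The part of these cell types in the result was not tested either.

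By a rule that ranked 13532 genes on their correlation with the mean score of the 10 over 24 libraries, the genes most like them were Ltbp4 (r = 0.96), Pltp (0.95), Lamb2 (0.94), Cdh5 (0.94), Adgre5 (0.94), Ptprb (0.94), Vwf (0.94), Lef1 (0.94), Dock6 (0.93) and Pecam1 (0.93). Cdh5, Vwf and Pecam1 are widely used endothelial markers, and Lamb2 is a laminin chain of the vessel basement membrane. Vwf was also first for the contractile genes alone (r = 0.94), followed by Ltbp4, Lamb2, Slc52a3 and Pear1. The genes most like the pericyte genes alone were Ltbp4 (r = 0.95), Ptprb, Lamb2, Cdh5 and Pxn.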

How the data were processed

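PFC libraries were made from poly(A) RNA with a strand-specific kit and sequenced as paired ends. Per the submitters' notes and the methods, reads were processed with fastp 0.20.1, HISAT2 2.2.1 (mm10), featureCounts (Subread 2.0, GENCODE vM22) and DESeq2 1.36.0. The signal values that the authors deposited are reads per gene after division by a size factor of the library. Each was a whole multiple of the value of 1 read (tolerance 0.01 read, 100% of values), so reads were recovered for depth, for TPM and for count models. TPM used exon lengths of 14061 of the 14074 genes. The authors' tables of fold changes and p-values were not used, and the DRN libraries were not analysed here.

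Groups and mouse numbers came from the library names in the sample labels. In these names con was taken as control, dep1 as PS and dep2 as AS. Differences were tested with limma 3.58.1 in R 4.3.3 on the log2 of normalized count + 1, with a mean for each group, all 24 libraries and a trend in eBayes. P-values were Benjamini-Hochberg adjusted over all 14074 genes, and an adjusted p under 0.1 was a call. The 12 comparisons were PS, AS and control against each other with saline (3) and with DEX (3), DEX against saline in each phenotype (3) and the differences of these responses (3). The members and gene lists were chosen with earlier results of these data known. Named genes were the 10 members, up to 3 called genes for each other mural list and comparison by size, the 10 genes most correlated with the members and the 5 most correlated with each of their subgroups.

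Alternatives were a pseudocount of 8, a mean of at least 100 normalized counts, at least 10 reads in each library (13161 genes), quantile normalization, TMM scaling, each library left out in turn, a covariate for log2 library size, a fit to only the groups compared, and count models of the recovered reads with DESeq2 1.42.0 (Wald) and edgeR 4.0.16 (quasi-likelihood). Leaving out AS mice 8 and 40 together was added after seeing the data. The models were tested on simulated data.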

Additional observations from a re-analysis of the deposited data

Results flagged for a closer look

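For each of the 10 genes in each of the 6 groups of 4 mice, the highest and the lowest value were checked for standing far from the other 3 by Dixon's ratio. Of these 60 sets 2 were marked, and chance marks about 1 in 20. Myh11 in DEX-treated controls had 153.8 normalized counts in mouse 112, the lowest of its group, with 283 to 307 in the other mice. Mouse 112 was lowest in its group for 9 of the 10 genes. Gkn3 in DEX-treated AS animals had 35.5 normalized counts in mouse 60, the highest, with 18.4 to 20.3 in the other mice. Without this mouse the log2 fold change of Gkn3 between DEX and saline in AS animals was -2.06, against -1.85 with all libraries.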

How the results depend on the processing

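Of the 10 alternatives other than single removals, those that moved a count of the 10 genes by over 1.5 times were the following; for these the cause was not tested unless stated. In controls, DEX against saline gave 2 calls with only the groups compared and 1 without AS mice 8 and 40. In PS animals it gave 0, because the mean of at least 100 normalized counts left 9 genes without Gkn3. In AS animals it gave 2 without AS mice 8 and 40. AS against control with DEX gave 0 with library size as a covariate and 2 with quantile normalization. The interaction of AS and control gave 7 with DESeq2, 3 with edgeR and 2 with only the groups compared. The shares of all genes printed above are those of the main limma fit and do not apply to counts under the alternatives. Leaving out single libraries gave 4 to 9 calls for DEX in AS animals, 1 to 2 in PS animals and 0 to 1 in controls. It gave 0 to 7 for AS against control with DEX, 0 to 5 for PS against control with DEX and 0 to 7 for the interaction of AS and control. The counts of the 3 saline comparisons, of AS against PS with DEX and of the other 2 interactions stayed at 0 in every alternative run.

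Signs changed for small differences. The log2 fold change of Vtn in controls was 0.0031 with DESeq2 and 0.0024 with edgeR, and ran from -0.14 to 0.078 over single removals. That of Notch3 in controls ran from -0.13 to 0.061. In PS animals, Myh11 ran from -0.51 to 0.049 and Pdgfrb from -0.15 to 0.035. In AS animals, Abcc9 ran from -0.17 to 0.051, and without mice 8 and 40 Pdgfrb had 0.041 and Abcc9 0.15. Among the 10 genes' fold changes with DEX in each phenotype, in AS against control with DEX and in the interaction of AS and control, no other reversed. No scaling moved the median of all genes by more than 0.1 on the log2 scale, the farthest being 0.0253 for the interaction of AS and control with quantile normalization. No paired analysis was possible because mouse numbers do not recur between groups. With 4 animals per group and between-animal SDs such as 119 of 229 normalized counts for Acta2 in saline-treated AS animals, small differences were not detectable at this size.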
